A study of Mus musculus with 8 samples.

Results

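The genes described here are the simple epithelial keratins Krt7, Krt8, Krt18, Krt19, Krt20 and Krt23, 6 of the 23238 genes and other targets tested on the arrays. They were taken by name, each through the 1 probe that its RefSeq accession matched on the array design, and with earlier results of the same comparison known. Their differences between genotypes are therefore given as a description, with no p-value. Where a keratin is said to pass or keep an adjusted p, this too is a description and no test.

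RNA was measured in back skin epidermis of newborn (P0) C57BL/6 mice, 4 EED cKO (K14-Cre; EED flox/flox) and 4 control. The control samples carry no further allele in the labels, and neither group was treated. The other channel of each Agilent mouse array held Universal Mouse Reference RNA, a purchased mix that did not change over the 8 arrays, with the sample in Cy3 on replicates 1 and 3 and in Cy5 on replicates 2 and 4 of each genotype. Values are log2 ratios of sample over reference, and a log2 fold change is the EED cKO mean minus the control mean. K14-Cre acts in keratinocytes of the basal layer and in the cells that descend from them, so melanocytes, immune cells and dermal cells left in the preparation keep Eed. The Eed probe was lower in EED cKO by -1.46 ± 0.09 (log2 fold change ± SE, n = 4 and 4, limma adjusted p = 2.12e-05). The keratins that define epidermis, Krt5, Krt14, Krt1 and Krt10, were well above background on all arrays.

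Keratins form intermediate filaments only as heteropolymers, in which a type I chain pairs with a type II chain. Krt7 and Krt8 are type II keratins, and Krt18, Krt19, Krt20 and Krt23 are type I. Simple epithelial keratins are the filament proteins of single-layered epithelia such as gut, liver ducts and glands, whereas stratified epidermis is built mainly of Krt5 with Krt14 in its basal layer and Krt1 with Krt10 above it. In skin, Krt8, Krt18 and Krt20 are used as markers of Merkel cells, the touch receptor cells that arise from the epidermis. Eed is a core subunit of PRC2, the Polycomb complex that places the repressive mark H3K27me3 on histones.

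RefSeq upstream sequences of build GRCm38.p6 were found for 5 of the 6 keratins. The 250 bases before the start of 4 of them are shown, 5′ to 3′ on the strand of the gene, for Krt7 and Krt20, which had the largest differences, and for Krt8 and Krt18, which are partners in the filament and direct neighbours on chromosome 15. Capitals mark matches on either strand to TATAAA (known as the TATA box), GGGCGG (the GC box read by Sp factors), CANNTG (an E-box), TGANTCA (an AP-1 site) or CATTGT (a Sox site), and none of the matches overlaps another here.
Krt7, chr15:101412153-101412402, + strand: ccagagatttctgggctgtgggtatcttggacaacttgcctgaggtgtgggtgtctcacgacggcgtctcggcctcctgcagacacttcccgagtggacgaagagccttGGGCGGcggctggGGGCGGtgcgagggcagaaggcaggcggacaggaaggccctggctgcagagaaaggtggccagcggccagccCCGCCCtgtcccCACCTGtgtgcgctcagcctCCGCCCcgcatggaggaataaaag
Krt8, chr15:102004343-102004592, - strand: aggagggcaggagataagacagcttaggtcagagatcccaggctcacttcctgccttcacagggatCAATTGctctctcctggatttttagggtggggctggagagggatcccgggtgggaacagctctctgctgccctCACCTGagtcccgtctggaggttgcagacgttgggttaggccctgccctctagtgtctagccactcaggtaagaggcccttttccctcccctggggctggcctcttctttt
Krt18, chr15:102027966-102028215, + strand: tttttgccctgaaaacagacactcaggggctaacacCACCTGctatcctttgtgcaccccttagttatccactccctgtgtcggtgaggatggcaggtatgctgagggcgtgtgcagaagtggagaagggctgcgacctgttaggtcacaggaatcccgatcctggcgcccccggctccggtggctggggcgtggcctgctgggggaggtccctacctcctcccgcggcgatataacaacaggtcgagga
Krt20, chr11:99438154-99438403, - strand: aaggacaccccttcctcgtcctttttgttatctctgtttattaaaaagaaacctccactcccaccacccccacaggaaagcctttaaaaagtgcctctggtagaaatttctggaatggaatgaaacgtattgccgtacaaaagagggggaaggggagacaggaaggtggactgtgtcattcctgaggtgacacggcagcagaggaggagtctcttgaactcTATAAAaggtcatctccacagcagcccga

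The sequences are unlike each other in base composition. The Krt7 window holds 16 CpG dinucleotides at a GC content of 66%, and the Krt18 window holds 12 at 60.4%. The Krt20 window holds 5 at 48%, the Krt23 window 5 at 52.8% and the Krt8 window 3 at 58%, against medians of 6 CpG and 52.4% GC over 32851 promoters of the same length. The Krt7 window has 4 matches to GGGCGG, a motif found in 32.7% of all promoters and in none of the other 4 keratin windows. A TATAAA lies 29 bases before the start of Krt20 and in no other of these windows, and 12.4% of all promoters hold one. CANNTG occurs in 66.2% of all promoters and in those of Krt7, Krt8, Krt18 and Krt23. TGANTCA (6.75% of promoters) is in none of the 5 windows, and CATTGT (10.7%) is in that of Krt23 alone. These are matches of letters, and no measurement of binding or chromatin in this series bears on them.

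The level of each keratin in control epidermis was first set against the reference RNA, a comparison that played no part in choosing the genes. 4 of the 6 keratins were far below the reference mix and 2 were above it. Krt18, the main type I partner of Krt8, was 28.3-fold below the reference (log2 ratio -4.82 ± 0.06 SE, n = 4, limma adjusted p = 1.74e-12). Krt19, a type I keratin of ducts and of the hair follicle outer sheath that lacks the usual tail, was 11.4-fold below it (-3.51 ± 0.06, adjusted p = 1.95e-11). Krt8 was 9.01-fold below it (-3.17 ± 0.05, adjusted p = 9.34e-12).

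Krt20, a keratin of gut epithelium and Merkel cells, was 4.13-fold below the reference (-2.05 ± 0.06, adjusted p = 4.61e-10). Krt7, a keratin of ducts and glands, was 1.83-fold above it (0.87 ± 0.09, adjusted p = 5.87e-06). Krt23 was 23.4-fold above it (4.55 ± 0.07, adjusted p = 7.25e-12), so control epidermis held far more of this keratin's RNA than the mix. In the same comparison 77.6% of all tested genes passed an adjusted p of 0.05, 38.7% below the reference and 38.8% above it. The median control log2 ratio was 0.02 over all tested genes. All 6 keratins kept their direction and their call under the 24 alternatives that could give this value, with log2 ratios from -5.08 to -4.77 for Krt18, from -2.84 to -2.01 for Krt20 and from 0.43 to 1.40 for Krt7.

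All 6 keratins had higher ratios in EED cKO than in control epidermis, and for each of them every EED cKO array was above every control array. The log2 fold changes ranged from 0.47 for Krt23 and Krt18 to 3.00 for Krt7, with a median of 0.66, beside a median of 0.02 over all tested genes. In the fit over all genes, 6 of the 6 had an adjusted p below 0.05 at any fold, where 21.7% of tested genes did (11.8% higher and 9.91% lower in EED cKO, while with median centring 1016 of 2555 called genes were higher). With at least a 2-fold change it was 2 of the 6, Krt7 and Krt20, beside 1.2% of tested genes (1.1% higher). Of all tested genes 9.63% were higher in EED cKO without overlap of the groups. Since the keratins were picked with this contrast known, these shares stand side by side without a test. In RNA of whole epidermis, more cells of a type and more RNA per cell cannot be told apart.

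**Figure D1:**
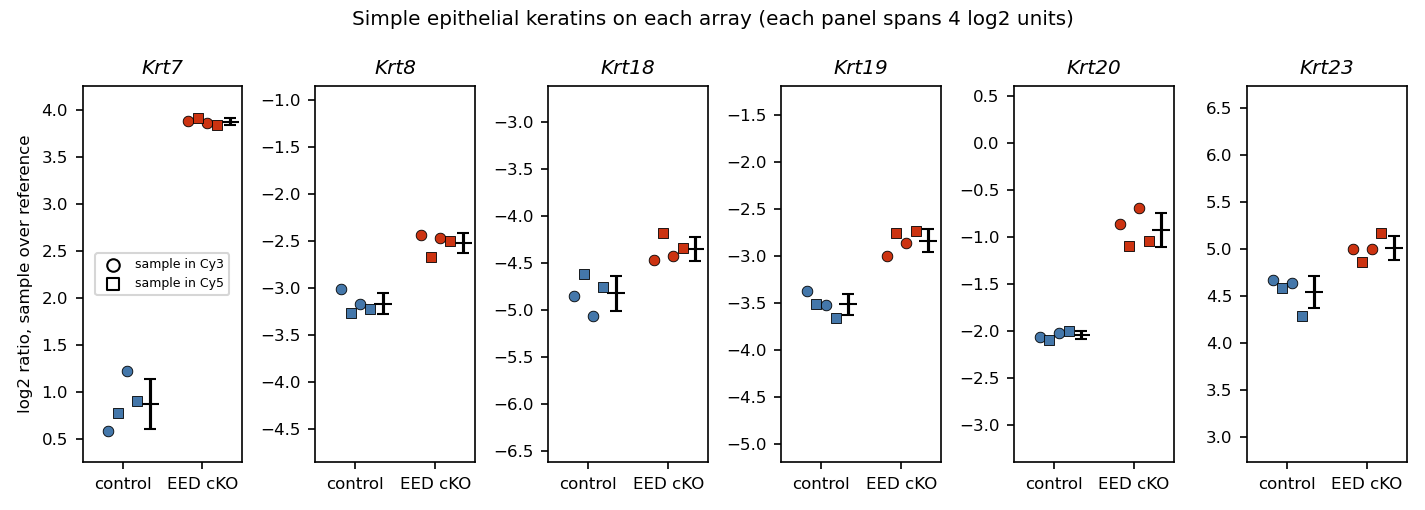
Log2 ratio of sample over reference (vertical axis) of the 6 keratins on the 4 control (blue) and 4 EED cKO (red) arrays, circles for the sample in Cy3 and squares for the sample in Cy5, with the mean and SD as bars. Each panel spans the same number of log2 units, so the step of 3.00 for Krt7 can be seen beside steps of 0.47 for Krt18 and Krt23, and no blue point reaches the red ones in any panel.

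Krt7 had the largest difference of the group. Its log2 ratio was 3.88, 3.91, 3.86 and 3.84 on EED cKO arrays 1 to 4, and 0.59, 0.78, 1.22 and 0.90 on control arrays 1 to 4. The EED cKO arrays were tightly grouped and the control arrays more spread, with SDs of 0.03 and 0.27 (n = 4 each). The log2 fold change was 3.00 ± 0.12 (SE), or 7.99-fold, and 11 of the 23238 tested genes (0.0473%), Krt7 included, had a fold change as large or larger. A gap of 2.61 separated the lowest EED cKO array from the highest control array.

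The step in Krt7 is visible before any normalization. The median spot signal in the sample channel was 1245, 1880, 1287 and 1359 scanner units on the EED cKO arrays and 91, 184, 196.5 and 179 on the control arrays. Over the local background this was 51.85 to 81.72 times in EED cKO and 3.64 to 9.2 times in control epidermis, so the probe was dim but above background in every control. The reference channel of the same spots was between 103 and 199 on all arrays.

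Krt20 had the second largest difference. Its log2 ratio was -0.86, -1.10, -0.70 and -1.05 on EED cKO arrays 1 to 4, and -2.07, -2.10, -2.02 and -2.00 on control arrays 1 to 4. In these ratios the control arrays were the tighter group, with an SD of 0.04 against 0.18 in EED cKO (n = 4 each). The difference between same-numbered arrays ran from 0.96 to 1.32, which puts the 2-fold line (log2 of 1) inside the range of single pairs.

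The Krt20 probe was dim in control epidermis. Its sample signal was 54, 115, 98 and 110.5 scanner units on the control arrays, 2.25 to 5.23 times the local background, and 155, 222, 195.5 and 156 on the EED cKO arrays. Spots this dim are those whose ratios an added offset draws toward 0. With the log ratio that the Feature Extraction software computes without such an offset, the log2 fold change of Krt20 was 1.72 ± 0.24 (SE) in place of 1.12 ± 0.08. With median centring in place of loess it was 0.94 and fell below 2-fold. With the Feature Extraction log ratio the SDs of Krt20 were 0.48 in control and 0.21 in EED cKO epidermis. Which group was the tighter thus depends on the processing.

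Krt8 and Krt18, whose proteins pair in most simple epithelia, moved by less than 2-fold, with log2 fold changes of 0.65 ± 0.07 and 0.47 ± 0.08 (SE). Krt8 had log2 ratios of -2.44, -2.68, -2.47 and -2.50 on the EED cKO arrays and -3.01, -3.27, -3.17 and -3.23 on the control arrays. Krt18 had log2 ratios of -4.47, -4.18, -4.42 and -4.34 on the EED cKO arrays and -4.85, -4.62, -5.06 and -4.76 on the control arrays. For both genes the groups stayed apart, by 0.34 for Krt8 and by 0.15 for Krt18.

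The SDs of Krt8 were 0.11 in each genotype and those of Krt18 were 0.13 in EED cKO and 0.18 in control epidermis (n = 4 each). Part of the spread of Krt18 followed the dye, with ratios 0.23 higher where the sample carried Cy5. The sample signal of Krt18 was 494 to 1265 scanner units in control and 659 to 1628 in EED cKO epidermis and overlapped widely before normalization, while its reference signal was 28584 to 33292. Krt18 did not keep an adjusted p below 0.05 with median centring or with the methods' t-test after Benjamini-Hochberg adjustment, the only 2 of 25 alternatives in which it did not, and Krt8 kept it in all 25.

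Krt19 differed by about as much as Krt8, with a log2 fold change of 0.68 ± 0.09 (SE) or 1.60-fold. Its log2 ratio was -3.00, -2.76, -2.86 and -2.73 on the EED cKO arrays and -3.37, -3.52, -3.52 and -3.65 on the control arrays. The SDs were 0.12 in both genotypes (n = 4 each), and the groups were 0.37 apart. Same-numbered arrays differed by 0.37 to 0.92, the lowest for replicate 1. The probe was dim in both groups, at 74.5 to 131 scanner units in control and 93 to 190 in EED cKO epidermis, and its fold change was 0.93 with the Feature Extraction log ratio.

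**Figure D2:**
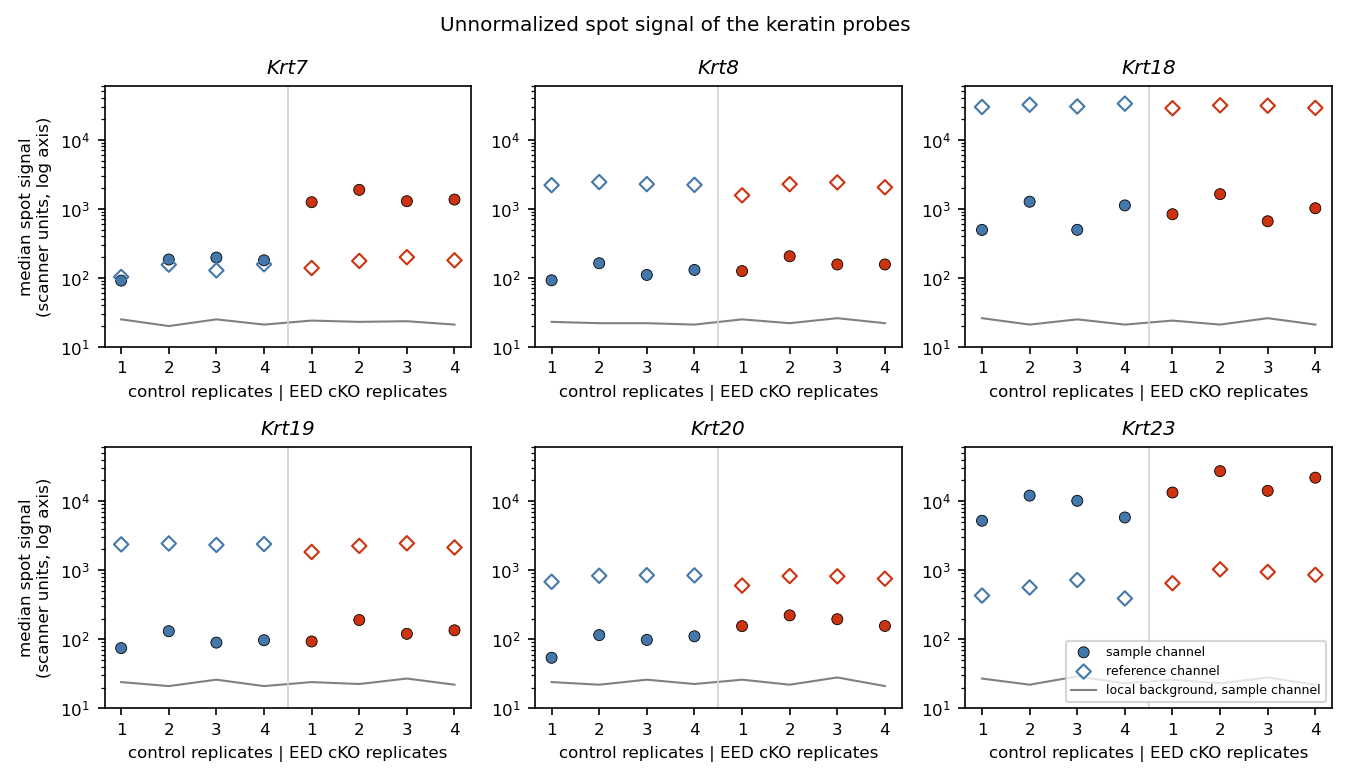
Unnormalized median spot signal (vertical log axis, scanner units) of the sample channel (filled circles) and the reference channel (open diamonds) of the 6 keratins on each control (blue) and EED cKO (red) array, over the local background of the sample channel (grey line). Krt7 leaves the level of its reference channel in all 4 EED cKO arrays, and the sample signals of Krt8, Krt18 and Krt19 overlap between genotypes. In Krt23 the sample signals are higher on every EED cKO array, while the unnormalized reference signals overlap.

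Krt23 had the largest gap between its ratio and its sample channel. As a ratio its values were 5.00, 4.87, 5.00 and 5.18 on the EED cKO arrays and 4.67, 4.59, 4.64 and 4.29 on the control arrays, with SDs of 0.13 and 0.17 (n = 4 each) and a log2 fold change of 0.47 ± 0.10 (SE) or 1.38-fold. In the sample channel alone the log2 fold change was 1.36, while that of Krt7 was 3.25 there beside 3.00 as a ratio. The sample signal was 13364, 27280, 14141 and 21925 scanner units in EED cKO and 5212, 12054, 10133 and 5816 in control epidermis, so the groups did not overlap in that channel either.

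The reference RNA was the same on all arrays, yet the reference signal of Krt23 was 649.5, 1031, 944.5 and 858 on the EED cKO arrays and 430, 563, 722.5 and 390.5 on the control arrays. On the log2 scale the reference channel was 0.90 higher on the EED cKO arrays, which takes the ratio's difference below that of the sample channel. For Krt7 the reference channel differed by 0.26, and for Krt8, Krt18, Krt19 and Krt20 by between -0.09 and 0.03. Krt23 shared this with other genes of high ratio. After these values were seen, genes with a control log2 ratio of 4 or more and a sample channel at least 1 higher in EED cKO were counted, and 16 of 16, Krt23 among them, had a higher reference channel there, with a median of 1.00. Of the 100 genes with the same rise but a control log2 ratio below 0, 47 had a higher reference channel, with a median of -0.01. What raised the reference signal was not tested.

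**Figure D3:**
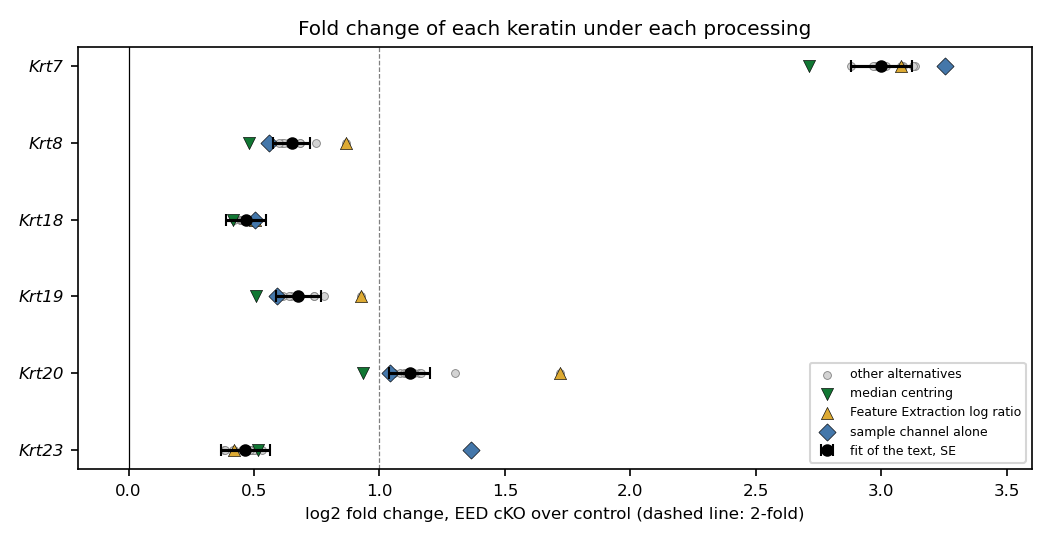
Log2 fold change of each keratin (horizontal axis) in the fit of the text (black, with SE) and under the alternative processings, with marks for the Feature Extraction log ratio, median centring and the sample channel alone. Krt7 stayed between 2.71 and 3.25, Krt20 ranged from 0.94 to 1.72 around the dashed 2-fold line, Krt18 from 0.42 to 0.51, and Krt23 lay at 1.36 in the sample channel alone.

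Among themselves the keratins followed the genotype more than each other. After removal of the dye effect, the 15 pairs of keratins had Pearson correlations from 0.82 to 0.98 over the 8 arrays. The step between genotypes largely sets these values. With the dye effect and each genotype's mean removed the same correlations ran from -0.70 to 0.65, 9 of them negative and 6 positive. The ratios as printed above still hold the dye effect and would give other correlations. Arrays of the same replicate number enter both sets of values, and 8 arrays are too few to order the pairs.

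For each keratin the genes with the most similar ratios over the 8 arrays, after removal of the dye effect, were picked by Pearson correlation as a description. Krt7 was closest to Fxyd4 (r = 0.9993, log2 fold change 3.33), a regulator of the sodium pump, and to Cgas (0.9978, 1.68), the sensor of cytosolic DNA. Krt20 was closest to Gm5936 (0.9979, 0.97) and to Isl1 (0.9970, 0.83), a transcription factor of Merkel cells. Krt8 was closest to the elastase gene Cela1 (0.9966, 0.34) and the neurotensin gene Nts (0.9966, 3.65). A gene can thus match the pattern of Krt8 with a far larger step.

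The remaining pairs were Dmpk (0.9932, 0.59) and Bcl2 (0.989, 0.56), a suppressor of apoptosis, for Krt18. For Krt19 they were 9130024F11Rik (0.9975, 0.59) and Ap3s1 (0.9964, 0.36), a subunit of a vesicle coat adaptor. For Krt23 they were Hipk4 (0.9856, 0.39) and Ube2w (0.9845, 0.17), with the lowest correlations of the 6 keratins. No gene appeared in the lists of more than 1 keratin. These genes were the highest of 23238 over 8 arrays, and nothing more is read from them.

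The keratin genes lie in clusters, on chromosome 15 (type II genes and Krt18) and on chromosome 11 (the other type I genes), so the neighbours of each member were read in RefSeq order. On chromosome 15 Krt7 had the log2 fold change of 3.00 next to Krt80 at 0.23 ± 0.10 (SE, limma adjusted p = 0.139). The gene after it, Krt87, did not pass the filter, and Krt88 beyond that was at 0.09 ± 0.06 (adjusted p = 0.355). At the other end of the cluster Krt8 and Krt18 lie side by side at 0.65 and 0.47, between Krt78 at 0.35 ± 0.11 (adjusted p = 0.0408) and Eif4b at -0.25 ± 0.10 (adjusted p = 0.117), which is no keratin.

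On chromosome 11 Krt20 and Krt23 are direct neighbours, at 1.12 and 0.47. The gene before Krt20 is Krt12, the keratin of the cornea, at 2.52 ± 0.22 (adjusted p = 1.55e-04), and the genes after Krt23, Krt39 and Krt40, did not pass the filter. Krt19 lies between Krt15 at 0.17 ± 0.09 (adjusted p = 0.214) and Krt9 at -0.04 ± 0.09 (adjusted p = 0.804). The 2 probes of Krt12 gave 2.52 and 2.72, but its fold change was 0.46 with the Feature Extraction log ratio, so its size depends on the processing.

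**Figure D4:**
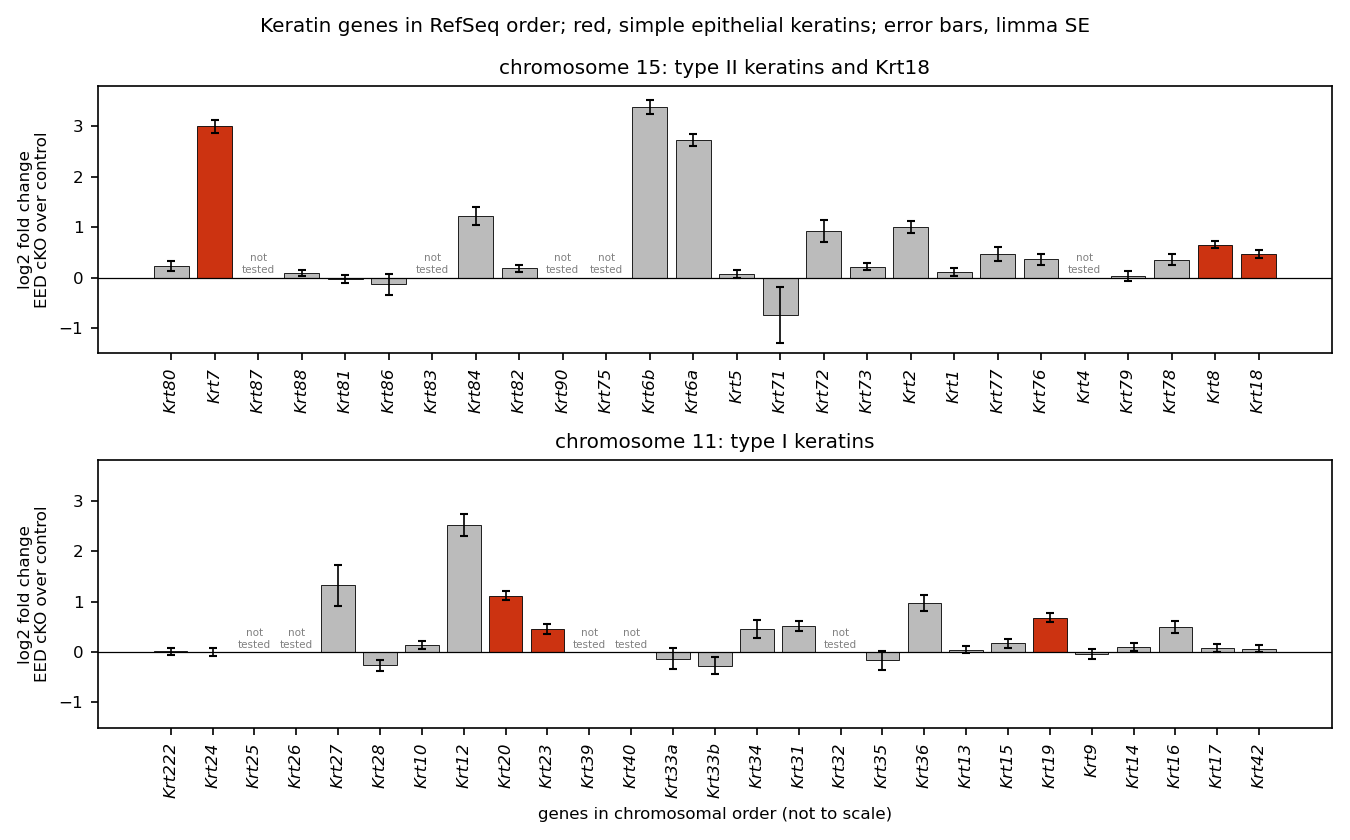
Log2 fold change of EED cKO over control (vertical axis, bars from 0, error bars limma SE) of the keratin genes in RefSeq order along chromosomes 15 and 11, simple epithelial keratins in red and genes that did not pass the filter marked as not tested. Krt7 stands between Krt80 at 0.23 and Krt87, which was not tested. Krt20 and Krt23 follow Krt12, and Krt8 and Krt18 are side by side.

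The other keratins give the scale for these differences. Of 44 listed keratin genes outside the simple epithelial group 34 were tested, 13 were higher in EED cKO at an adjusted p below 0.05, 0 were lower, and the median log2 fold change was 0.18. Krt5 (0.06, adjusted p = 0.629), Krt14 (0.10, adjusted p = 0.363) and Krt15 (0.17, adjusted p = 0.214), keratins of the basal layer, did not pass the test. In the sample channel alone their fold changes turned negative, at -0.09, -0.24 and -0.54, and Krt14 and Krt15 passed the test there as lower. Among keratins of wounded and hyperproliferative skin 3 of 4 rose, with Krt6b at 3.39, Krt6a at 2.74 and Krt16 at 0.50. The Krt16 groups overlapped. Krt6a and Krt6b are near-identical genes whose probes may not tell them apart, and the other Krt6b probe gave 0.73. With the Feature Extraction log ratio 1 of the 4 passed and Krt6a was at 1.12, and in the sample channel alone all 4 passed, with Krt16 at 1.90 and Krt17 at 0.66.

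Of the suprabasal and other interfollicular keratins 4 of 10 rose and 0 fell, led by Krt2 at 1.00 and Krt77 at 0.47. The other Krt2 probe gave 3.29 and was well above background on 2 of 4 control arrays, and Krt76 was among the 4 but not well above background on any control array. Of the mucosal and corneal keratins 2 of the 3 tested rose, Krt12 at 2.52 and Krt84 at 1.22, and 1 of them passed with the Feature Extraction log ratio. Of the hair keratins 4 of the 14 tested rose, led by Krt27 at 1.33, Krt36 at 0.97 and Krt72 at 0.93, and the median of these 14 was 0.07, or -0.07 with median centring. The groups of Krt27 and Krt72 overlapped. Krt27 had an SE of 0.41 and passed under 3 of 7 processings compared, and the other Krt36 probe gave 0.20. The simple epithelial keratins, at a median of 0.66, lay beside medians of 1.62 for the stress keratins and 1.22 for the mucosal and corneal keratins. With the Feature Extraction log ratio the same medians were 0.90 for the simple epithelial, 0.75 for the stress and 0.46 for the mucosal and corneal keratins, so their order turns with the processing. With median centring 1 suprabasal and 1 hair keratin passed, and without control replicate 2 or without control replicate 4 it was 1 suprabasal keratin.

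Of 24 genes that bind or modify keratin filaments 2 rose, 6 fell, and the median was -0.06. Pkp2, the plakophilin of simple epithelia and heart, was higher by 1.21 ± 0.12 (SE, adjusted p = 2.79e-04) and by 2.32 with the Feature Extraction log ratio, while the linker Plec was at -0.49 (adjusted p = 0.0156) and the armadillo protein Pkp4 at -0.48 (adjusted p = 0.00897). Of these 24 genes 14 passed in the sample channel alone and 5 with median centring or without control replicate 2.

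Other genes of simple and glandular epithelia moved in both directions. Of 22 listed genes 18 were tested, 7 were higher in EED cKO, 2 were lower, and the median log2 fold change was 0.19. The ETS factors Ehf (1.62, adjusted p = 6.54e-04) and Elf5 (1.29, adjusted p = 0.00553) and the GATA-type repressor Trps1 (1.19, adjusted p = 1.17e-04) had the largest rises, and with the Feature Extraction log ratio they were at 1.85, 2.57 and 2.29. Elf5, Cldn3 and Foxa1, counted among the 7, were well above background on 2, 1 and 1 control arrays. They passed the filter only through the EED cKO arrays, so their counts as risen rest partly on the filter. Cdx2 and Vil1, which define intestinal epithelium, were not well above background on any array, where Krt19 and Krt20 are keratins of the lining.

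Of the Merkel cell transcription factors, whose lineage uses Krt8, Krt18 and Krt20, 5 of 7 rose, 0 fell, and the median was 0.64. Atoh1, the factor that specifies Merkel cells, was higher by 0.87 ± 0.07 (SE, adjusted p = 1.50e-04), Isl1 by 0.83 ± 0.07 (adjusted p = 1.37e-04) and Insm1 by 0.70 ± 0.09 (adjusted p = 0.00133). Isl1 and Atoh1 were well above background on 2 of 4 control arrays, and their fold changes were 2.95 and 3.04 with the Feature Extraction log ratio, where that of Insm1 was 1.09. Sox2 passed the test (adjusted p = 0.00764) but was not well above background on any control array, so no size is given for it. The size of these differences therefore depends on the processing, and the median of the list was 1.09 with the Feature Extraction log ratio. Their summed sample signal was 710.2 to 963.6 on the EED cKO arrays and 526 to 1023 on the control arrays and overlapped. Such a sum is signal above local background without normalization, with Cy3 and Cy5 arrays together. It follows the brightest probes, so its overlap does not bear on single genes. Of 19 other Merkel cell genes 14 were tested, 8 rose and 0 fell, with a median of 0.36 and 4 rises with median centring. The largest rises were Cck at 1.64 and Tubb3 at 1.15, both well above background on all arrays, and Uchl1 at 0.71. Uchl1, Syt1 and Tac1, counted among the 8, were well above background on 1, 1 and 0 control arrays. Nefl, Nefm and Vip were not well above background on any array. The part of Merkel cells in the levels of Krt8, Krt18 and Krt20 was not tested.

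**Figure D5:**
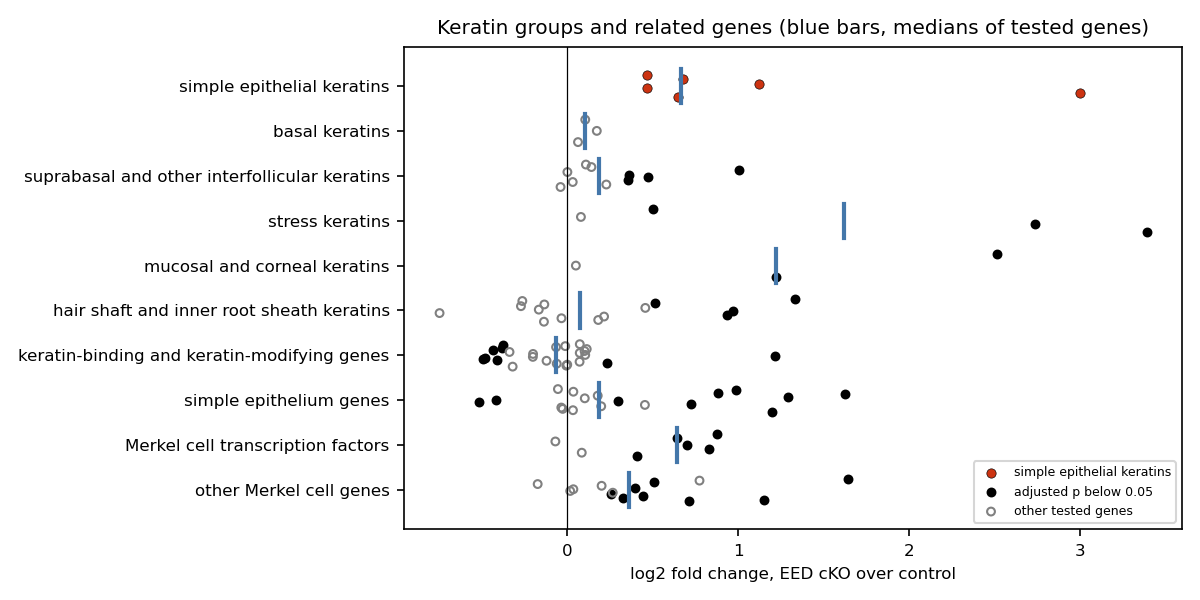
Log2 fold change of EED cKO over control (horizontal axis) of the tested genes of each list, simple epithelial keratins in red, genes with an adjusted p below 0.05 filled and others open, with the median of each list as a blue bar. The 6 keratins lie between 0.47 and 3.00 around a median of 0.66, the 3 basal keratins near 0 (below it in the sample channel alone), and the Merkel cell transcription factors around a median of 0.64.

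Markers of other cells that use these keratins, or that the preparation could hold, were read in the same fit. Among periderm markers, for cells in which Krt8, Krt18 and Krt19 are known, 1 of 7 tested rose (Arhgap29, 0.47) and 1 fell (Gabrp, -0.96), and among hair follicle stem and outer root sheath markers, where Krt19 is known, 3 of 9 rose, led by Tbx1 at 0.97 and Nfatc1 at 0.70. Sebaceous gland markers rose in 2 of 8 (Far2 0.58 and Pparg 0.56) and eccrine and mammary gland markers, for glands that hold Krt7, Krt8, Krt18 and Krt19, in 2 of 5 (Elf5 1.29 and Aqp5 0.61), while Csn2 and Ltf of that list were not well above background on any array. Elf5 and the Aqp5 probe used were well above background on 2 control arrays and Far2 on 1. These genes passed the filter only through the EED cKO arrays, so their counts as risen rest partly on the filter. The groups of Arhgap29 and Tbx1 overlapped, and Tbx1 (SE 0.30) passed under 4 of 7 processings compared. The other probes of Arhgap29, Nfatc1 and Aqp5 gave 0.37, 0.34 and 0.20. The summed sample signals of these 4 lists, unnormalized as above, overlapped between genotypes. For periderm they were 36950 to 62360 in EED cKO and 23180 to 48410 in control epidermis. For the glands they were 561 to 2063 and 588.5 to 2232. For sebaceous gland they were 23530 to 65200 and 9021 to 38020, and for the hair follicle list 69560 to 104500 and 59450 to 119000.

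Of the mesothelial markers, for a lining that is rich in Krt7, Krt8, Krt18 and Krt19, 1 of 5 was tested and did not pass, and Lrrn4 and Upk1b were not well above background on any array. Endothelial markers rose in 2 of 3 tested (Pecam1 0.89 and Kdr 0.62), with summed signals of 2867 to 4319 and 2213 to 3135 and with Cdh5 and Tie1 not well above background on any array. The Kdr groups overlapped. The other Kdr probe gave 0.03 and was well above background on 1 array of each genotype. Immune markers rose in 2 of 5 (Cd3e 0.54 and Cd74 0.46, with summed signals of 1875 to 2196 and 900 to 2858) and dermal fibroblast markers in 1 of 6 (Lum 0.50, with 19070 to 33680 and 19760 to 40430). Melanocyte markers fell in 1 of 6 (Sox10 -0.50, with 13790 to 22350 and 11010 to 29880), and no skeletal muscle marker of 4 passed. The groups of Cd74 and of Sox10 overlapped. With median centring the calls of Lum, Sox10, Arhgap29 and the hair follicle list were lost, as were those of 1 sebaceous and 1 immune marker. The part of these cells in the keratin differences was not tested.

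The summed signal of 4 Y-linked genes was 3662 and 2376 scanner units on control arrays 2 and 3 and between 10 and 77.5 on the other 6 arrays, all EED cKO arrays among them. Ddx3y, Eif2s3y and Uty were well above background on 2 control arrays and Kdm5d on none. Without these 2 control arrays, a choice made after seeing the data, the log2 fold changes were 3.13 for Krt7, 0.60 for Krt8, 0.45 for Krt18, 0.67 for Krt19, 1.11 for Krt20 and 0.53 for Krt23. All 6 stayed higher in EED cKO in that fit, and Krt7 and Krt20 remained past 2-fold. Leaving out any 1 array also kept all 6 higher, with Krt7 between 2.88 and 3.13 and Krt23 between 0.38 and 0.50.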

How the data were processed

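The arrays were scanned and quantified by the authors with Agilent Feature Extraction 12.0.1.1. The deposited files hold unnormalized median spot intensity and local background per channel, and the software's own log10 ratio, Cy5 over Cy3. The authors also deposited log2 ratios (sample over reference) in 1 table. Over 441992 compared values these differ from the software's ratio by a median of 2.81e-06 and by 0.519 at most. Here median intensities were corrected with normexp (offset 50) and normalized by loess within each array, in limma 3.58.1 under R 4.3.3, and all ratios were turned to sample over reference. Such an offset draws ratios of dim spots toward 0. Probes were named through RefSeq accessions (GRCm38.p6), which matched 28026 of 29796. Since the array design follows another build, gene coordinates are not given except for the RefSeq promoters.

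The filter asked that a probe's sample signal be flagged well above background on 3 or more of the 4 arrays in either genotype. This left 23238 of 36799 genes and targets. There were 19 missing values, which were not filled in for the fit. The fit was lmFit and eBayes on genotype plus dye, with Benjamini-Hochberg adjustment over all tested genes. Precision is limited by the 4 arrays per genotype, and 51.5% to 65.5% of spots per array were well above background. The labels call the samples biological replicates without saying whether animals were pooled. The 6 keratins and the gene lists were chosen with earlier results of these data known. From each other list up to 3 genes with an adjusted p below 0.05 and the largest change are named, besides Eed, Atoh1, Sox2, Isl1, the basal keratins and the genes most like each keratin. Neighbours were named by position, and genes not well above background on some or all arrays after their values were seen.

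Samples of the same replicate number deviated together from their group means (correlations 0.489, 0.679, 0.327 and 0.365 over genes, and 0.126 or 0.456 after removal of the dye), so the number was also fitted as a block. The script was tested on simulated data. Alternatives covered background correction, normalization, channel, filter, probes, dye term, block, trend, weights, the methods' t-test and each array left out.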

Additional observations from a re-analysis of the deposited data

How the results depend on the processing

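The 6 keratins kept their direction under all 25 alternatives, and the comparison of control epidermis with the reference kept its calls. With the Feature Extraction log ratio and with the deposited table, 701 genes passed at 2-fold (278 in the text) and the median of the keratins was 0.90 in place of 0.66. With median centring 2555 genes passed at any fold (5033 in the text), the keratin median was 0.51, 1 keratin (Krt7) passed at 2-fold, and 34 genes of the other lists passed in place of 60. Without the dye term 2360 genes and 36 genes of the lists passed. The methods' t-test gave 275 genes at 2-fold with 2 of the keratins, and after Benjamini-Hochberg adjustment 172 genes at 2-fold, 896 at any fold and 21 of the lists, with 4 keratins at any fold. In the sample channel alone the keratin median was 0.82. Leaving out 1 array at a time gave 2728 to 5055 genes at any fold (2728 without control replicate 2, 2955 without EED cKO replicate 4 and 3345 without EED cKO replicate 3), and without the 2 control arrays with Y-linked RNA it was 2578. The replicate block gave 279 genes at 2-fold and 5987 at any fold and changed no keratin's call. Krt23 did not pass at any fold with the Feature Extraction log ratio, the deposited table or the methods' t-test after adjustment, and passed at 2-fold in the sample channel alone. The causes of these shifts were not tested. No keratin spot was saturated, and Krt8, Krt19 and Krt20 were dim.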
